A study of Mus musculus with 12 samples.

Results

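The endothelial and mural cell genes are 34 genes that mark the cells of brain blood vessels, taken by symbol from the 24421 genes counted in each library, and all 34 symbols were found. Of these, 23 mark endothelial cells and 11 mark mural cells, the pericytes and smooth muscle cells that wrap the vessels. The RNA came from the hippocampus of C57/Bl6 mice aged 6 weeks, and was the material that pelleted through a 1 molar sucrose cushion during a 4 h spin, a fraction enriched in polyribosomes, sequenced with a SMARTer total RNA kit. The 12 libraries are 6 labelled fear case and 6 labelled control. The same protocol text accompanies every library, controls included: mice housed singly, 8 min in a context new to them, 7 min in the home cage, and collection at 15 min. Fear is named in the group label and the design text, but the series title names only the unfamiliar context. The labels do not say how the control mice differed from this or whether a shock was given. They also do not say that each library is 1 mouse, so the p-values reflect variation between libraries that may be technical in part. The tissue is whole hippocampus, so fewer vessel cells and less RNA per vessel cell cannot be told apart, and no unfractionated RNA was analysed here.

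Endothelial cells of the brain form the blood-brain barrier. Claudins and occludin seal the clefts between them, few vesicles cross them, and transporters in their membranes admit glucose and particular lipids while ATP-driven pumps return many drugs to the blood. They depend on vascular endothelial growth factor and angiopoietin signals, which reach receptor tyrosine kinases on their surface. Pericytes share the basement membrane of capillaries and are recruited by platelet-derived growth factor, and smooth muscle cells around arterioles set vessel diameter with a contractile apparatus of actin, myosin and their partners.

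The libraries held between 18.6 M and 44.2 M gene counts, fear case 6 being the deepest, and the 34 genes held 0.0339% to 0.0559% of them. Fear case 6 also differed in composition. The ribosomal RNA precursor Rn45s took 12.5% of its gene counts, against 4.55% to 7.98% in the other libraries, and its TMM scaling factor was the lowest, 0.908. The labels were checked with Fos, Npas4 and Arc, genes that neurons switch on within minutes, whose levels did not overlap between the groups. Choroid plexus markers, which belong to the secretory epithelium of the ventricles, set the libraries apart: summed over 17 genes they ranged from 30.9 to 429 CPM in fear case 1 to 5 and stood at 1540 CPM in fear case 6, against 795 to 2247 CPM in the controls. CPM is the count divided by the scaled library size in M. Ttr alone held most of the choroid plexus sum, with averages of 326 of 404 CPM in fear case and 1121 of 1323 CPM in control. Several of the vessel genes are also used by that epithelium or by other brain cells.

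None of the 34 genes differed between the groups at an adjusted p under 0.05. With edgeR's quasi-likelihood fit, 32 genes passed the filter on low counts and 0 of them were called, against 0.103% of the 14564 genes tested (0.0549% lower and 0.0481% higher in fear case). Ly6c1 and Ly6a did not pass the filter. At an unadjusted p under 0.05 there were 3 members, against 7.14% of all genes: Tek and Pltp on the lower side, where 4.52% of all genes stood, and Tjp1 on the higher side, where 2.62% stood. DESeq2 and limma-voom called 0 members as well, with 3 and 4 of them at an unadjusted p under 0.05. No member had fear case and control libraries that did not overlap, against 0.597% of all genes tested.

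The log2 fold change was negative for 15 of 21 endothelial genes, with a median of -0.12, and for 9 of 11 mural genes, with a median of -0.22. Over all genes 51.4% were negative and the median was -0.0046. Both medians moved with single libraries. For the endothelial genes it was -0.28 with fear case 6 left out, -0.0025 with fear case 5 left out, and -0.055, -0.063 and -0.066 without fear case 3, fear case 4 or control 1. For the mural genes it ranged from -0.26 to -0.15, the value nearest 0 being that without control 1. A choroid plexus score, the mean log2 CPM of the choroid plexus markers tested, was also used as a covariate. With it the medians were -0.020 for the endothelial and -0.18 for the mural genes. In summed CPM the markers of fear case 1 to 5 lay below those of every control, and fear case 6, at 1540 CPM, lay within the control range. The score itself was not compared between the groups. All 16 markers tested had a negative log2 fold change, so this covariate overlaps with the group. A fit with it cannot tell choroid plexus content from group, and every value given below with this covariate carries that limit. The plot of medians by setting shows both lists beside all genes.

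**Figure D1:**
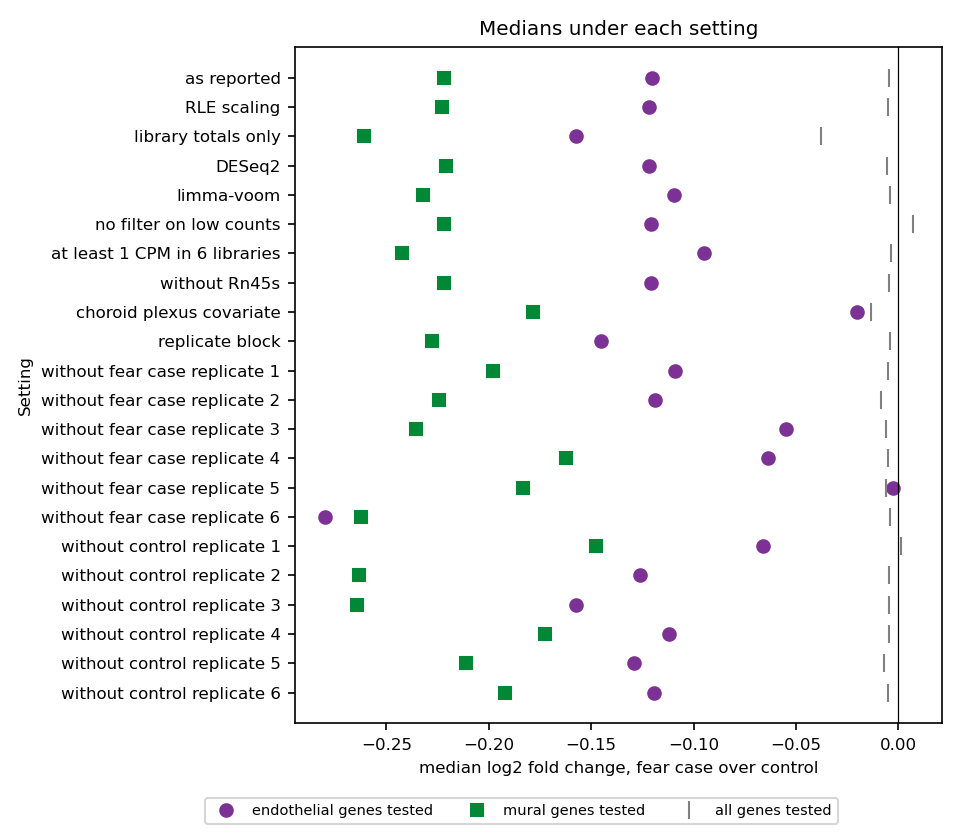
Median log2 fold change, fear case over control (horizontal axis), of the endothelial genes tested (circles), the mural genes tested (squares) and all genes tested (ticks) under each setting (vertical axis). The endothelial median lies between -0.28 and -0.0025 and the mural median between -0.26 and -0.15 over the settings drawn.

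The precision differed widely between members. The 95% interval of the fold change lay within 2-fold either way for 23 of the 32 tested genes (16 endothelial, 7 mural) and within 1.5-fold for 9 (6 endothelial, 3 mural). Its half-width on the log2 scale ran from 0.15 for Tjp1 to 1.21 for Des, with a median of 0.62. For the members with wide intervals a change of 2-fold lies inside the interval.

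**Figure D2:**
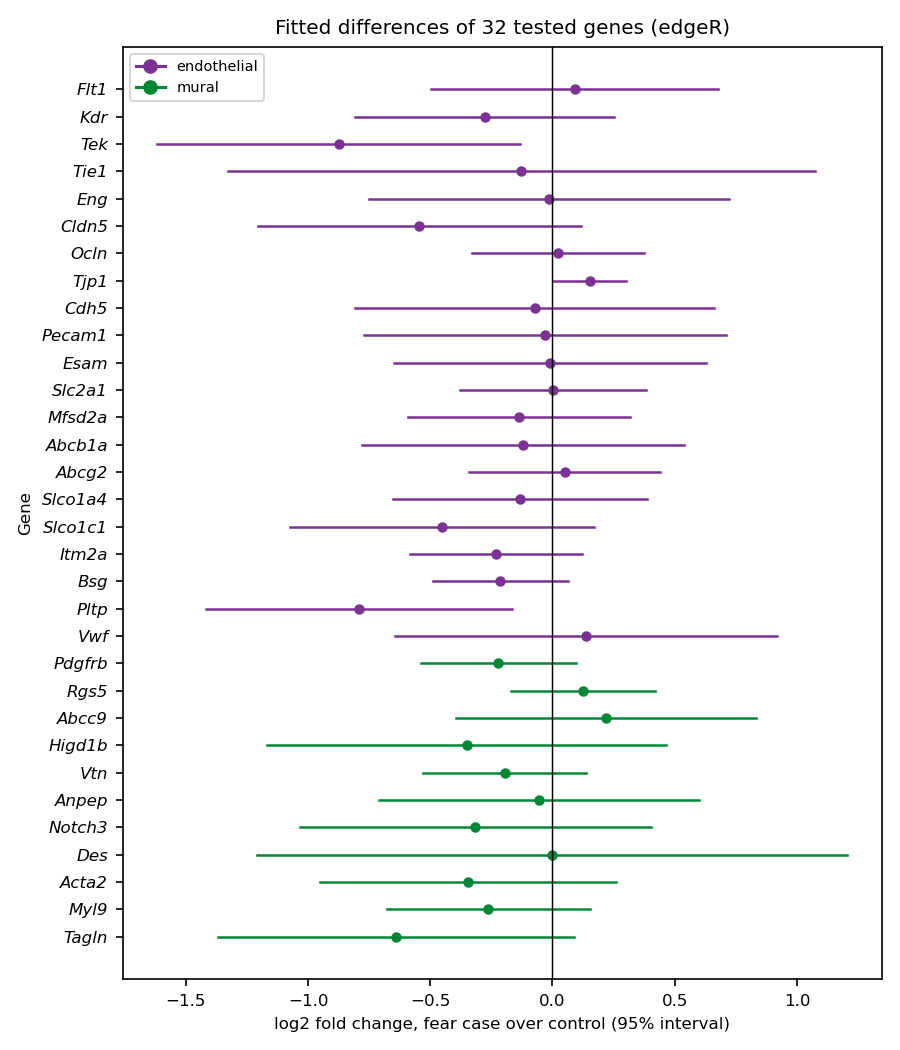
Log2 fold change, fear case over control (horizontal axis), of the 32 genes tested (vertical axis), with bars for the 95% interval of the edgeR fit. The intervals of Tek, Pltp and Tjp1 do not reach 0, and those of Tie1 and Des are the widest.

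Levels compared per kilobase of merged exons spanned several orders of magnitude. Bsg, which encodes basigin, a glycoprotein that escorts monocarboxylate transporters to the membrane, stood first at 105 ± 21.5 CPM per kb in fear case and 122 ± 29.0 in control (SD, n = 6 each). Tjp1, which encodes the junction scaffold ZO-1, came next at 13.02 ± 0.671 CPM per kb in fear case and 11.7 ± 1.198 in control. Neither transcript is restricted to vessels, since neurons, glia and epithelia use both, and together they made up 80.4% to 83.6% of the summed CPM of the 23 endothelial genes. From Myl9, the third in order, to Vwf, the last, the means over the 12 libraries ran from 5.32 to 0.103 CPM per kb. Of the 33 neighbouring pairs in this order, 31 had ranges that overlapped, and only Bsg and Tjp1 stood clear of the gene after them.

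The vessel-restricted endothelial genes were low in every library. Per kilobase Cldn5 reached 0.822 ± 0.268 CPM in fear case and 1.202 ± 0.386 in control, Pecam1 0.239 ± 0.124 in fear case and 0.248 ± 0.110 in control, and Vwf 0.108 ± 0.0431 in fear case and 0.0982 ± 0.0559 in control. In counts, Cldn5 had 10 to 54 per library and Cdh5 12 to 101. Of the 23 endothelial genes 3 averaged under 1 CPM in both groups, and of the 11 mural genes 2 did. Such low counts limit the precision of these genes.

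**Figure D3:**
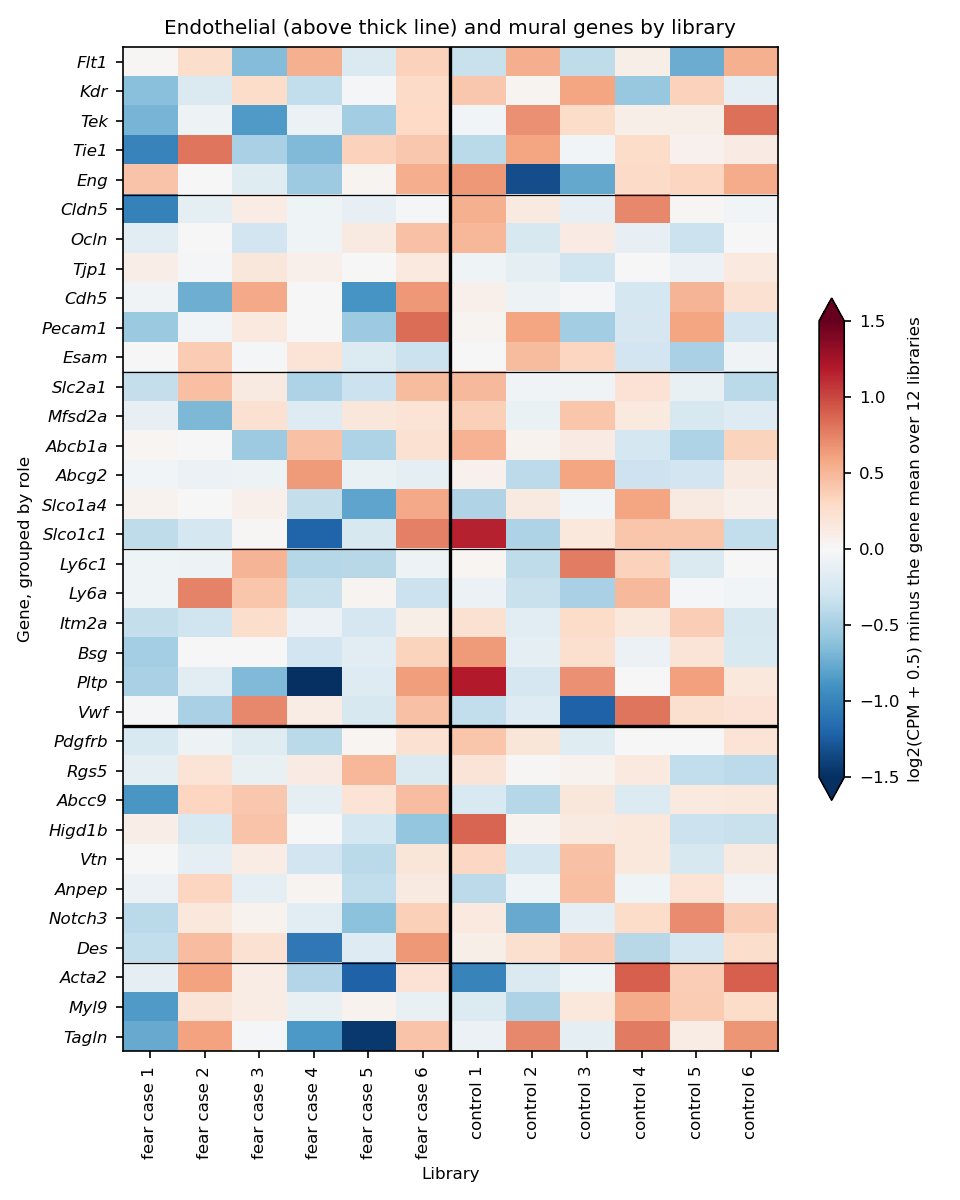
Log2(CPM + 0.5) minus the mean of each gene over the 12 libraries (colour) for the 34 genes (rows, by role, with the endothelial genes above the thick line) in fear case 1 to 6 and control 1 to 6 (columns). Fear case 6 holds the most endothelial genes above their own mean, 18 of 23, and fear case 1 the fewest, 5 of 23.

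The receptors of vascular growth factors come first. Tek encodes Tie2, the receptor of the angiopoietins. Its level was 0.366, 0.780 and 1.42 CPM in fear case (lowest, median, highest) and 1.02, 1.28 and 2.28 CPM in control. In 5 of 6 fear case libraries Tek lay below every control, and fear case 6 lay within the control range. The log2 fold change was -0.87 (SE 0.36, edgeR adjusted p = 0.603), and -1.14 (adjusted p = 0.277) without fear case 6. With the choroid plexus covariate it was -0.80 (adjusted p = 0.746). Tie1, its partner without a known ligand of its own, had 0 counts in fear case 1, which allows up to 0.128 CPM at 3 counts, and up to 1.23 CPM in the other fear case libraries, against 0.255 to 1.01 CPM in control. Its log2 fold change of -0.13 (SE 0.58, edgeR adjusted p = 0.981) has the widest interval of the receptors.

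Flt1 and Kdr encode the first and second receptors of vascular endothelial growth factor. Flt1 stood at 1.57, 3.11 and 4.20 CPM in fear case and 1.44, 2.53 and 4.25 CPM in control, so the groups span the same range. Kdr stood at 1.62, 2.50 and 3.49 CPM in fear case and 1.71, 3.25 and 4.43 CPM in control, with 1 fear case library below every control. Eng, the co-receptor endoglin of the transforming growth factor beta family, averaged 2.27 ± 0.748 CPM in fear case and 2.31 ± 1.24 CPM in control (SD, n = 6 each). The log2 fold changes were 0.09 (SE 0.28) for Flt1, -0.28 (SE 0.26) for Kdr and -0.02 (SE 0.35) for Eng, with edgeR adjusted p of 0.971, 0.849 and 0.996. Kdr was at -0.020 with the choroid plexus covariate and ran from -0.40 without control 4 to -0.16 without control 3.

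Among the junction genes the tight junction claudin Cldn5 was at 0.426, 1.25 and 1.52 CPM in fear case and 1.21, 1.47 and 2.56 CPM in control. Fear case 1, the lowest of all 12 libraries, and fear case 2 lay below every control. Its log2 fold change was -0.54 (SE 0.32, edgeR adjusted p = 0.755), and between -0.63 and -0.38 with any one library left out. Occludin (Ocln), a second strand protein of the tight junction, averaged 6.84 ± 1.36 CPM in fear case and 6.78 ± 1.59 CPM in control (SD, n = 6 each), with a 95% interval of the log2 fold change from -0.33 to 0.37.

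Tjp1, with 1632 to 4269 counts per library, had the narrowest 95% interval of the tested members. Bsg had more counts, 3322 to 10249 per library. Tjp1 stood at 94.7, 102 and 108 CPM in fear case and 78.2, 91.2 and 106 CPM in control. All 6 fear case libraries were above the control median, and 2 were above every control. The log2 fold change was 0.15 (SE 0.07, unadjusted p = 0.0452, edgeR adjusted p = 0.676), and 0.11 to 0.20 with 1 library left out.

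The adhesion genes of the endothelial cleft showed averages that were close beside their spread. Cdh5, the adherens junction cadherin of vessels, averaged 1.47 ± 0.827 CPM in fear case and 1.56 ± 0.399 CPM in control (SD, n = 6 each). Fear case 3 and fear case 6 were above every control for Cdh5 and fear case 2 and fear case 5 below every control. Pecam1, the adhesion molecule CD31, averaged 1.49 ± 0.775 CPM in fear case and 1.54 ± 0.684 CPM in control, and Esam, an immunoglobulin-type adhesion molecule, 1.31 ± 0.328 CPM in fear case and 1.32 ± 0.455 CPM in control (SD, n = 6 each). The log2 fold changes of these 3 genes ran from -0.07 to -0.01, with standard errors of 0.31 to 0.36 and edgeR adjusted p from 0.982 to 0.996. Without fear case 6 the values were -0.31 for Cdh5, -0.36 for Pecam1 and 0.08 for Esam. With the choroid plexus covariate they were 0.29 for Cdh5, 0.25 for Pecam1 and -0.43 for Esam.

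Of the 6 barrier transport genes, 4 had a negative log2 fold change and none had an unadjusted p under 0.05. Slc2a1, the glucose transporter GLUT1, averaged 10.1 ± 3.13 CPM in fear case and 10.2 ± 2.34 CPM in control (SD, n = 6 each), with a 95% interval from -0.38 to 0.38 on the log2 scale. Mfsd2a, which carries lysophosphatidylcholine with omega-3 fatty acids and holds vesicle traffic low, averaged 3.31 ± 0.835 CPM in fear case and 3.64 ± 0.825 CPM in control. Fear case 2 had the lowest Mfsd2a level, 1.93 CPM, and control 3 the highest, 4.71 CPM.

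The efflux pumps are Abcb1a, P-glycoprotein, and Abcg2, the breast cancer resistance protein. Abcg2 stood at 6.31, 6.55 and 11.1 CPM in fear case and 5.21, 6.48 and 10.8 CPM in control. Its highest value belonged to fear case 4, while the other 5 fear case libraries lay within 6.31 to 6.77 CPM. Abcb1a averaged 1.36 ± 0.480 CPM in fear case and 1.49 ± 0.493 CPM in control (SD, n = 6 each). Their log2 fold changes were 0.05 (SE 0.19, edgeR adjusted p = 0.978) for Abcg2 and -0.12 (SE 0.32, adjusted p = 0.964) for Abcb1a.

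The organic anion transporters Slco1a4 and Slco1c1, the second of which brings thyroxine across the barrier, are used by endothelium, and Slco1c1 by choroid plexus and astrocytes as well. Slco1c1 stood at 1.77, 3.90 and 8.33 CPM in fear case and 3.29, 5.92 and 11.2 CPM in control. Its 2 highest libraries were control 1 and fear case 6, whose choroid plexus sums were 2247 and 1540 CPM. Its lowest was fear case 4, with a choroid plexus sum of 32.5 CPM. Fear case 2, with the lowest choroid plexus sum (30.9 CPM), had Slco1c1 at 3.87 CPM, above control 2 and control 6 at 3.29 and 3.54 CPM. The choroid plexus sums of control 2 and control 6 were 934 and 795 CPM. Whether the Slco1c1 level follows these sums was not tested. The log2 fold change was -0.45 (SE 0.30, edgeR adjusted p = 0.785), -0.76 (adjusted p = 0.403) without fear case 6, -0.19 without control 1, and 0.19 (adjusted p = 0.937) with the choroid plexus covariate. Slco1a4 averaged 3.06 ± 1.10 CPM in fear case and 3.38 ± 0.906 CPM in control, with a log2 fold change of -0.13 (SE 0.25, edgeR adjusted p = 0.939).

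Pltp, the phospholipid transfer protein of lipoproteins, had the lowest unadjusted p of the 34 genes. It stood at 1.33, 3.69 and 7.68 CPM in fear case and 3.93, 6.47 and 11.6 CPM in control. Fear case 1, 3 and 4 lay below every control, and fear case 6 was higher than 4 of the 6 controls. The log2 fold change was -0.79 (SE 0.30, unadjusted p = 0.0157, edgeR adjusted p = 0.559). It was -1.12 (adjusted p = 0.0626) without fear case 6 and -0.58 without control 1. With the choroid plexus covariate it was -0.15 (adjusted p = 0.950), and the part of choroid plexus RNA in the Pltp level was not tested. Exons of Pltp overlap exons of Ctsa on the other strand (chromosome 2, 164839518 to 164857711 for Pltp, GRCm38), and the strand setting of the counting was not stated, so reads of the overlap cannot be assigned.

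Bsg stood at 141, 190 and 256 CPM in fear case and 173, 210 and 315 CPM in control, with control 1 the highest library, fear case 6 the second highest and fear case 1 the lowest. Its log2 fold change was -0.21 (SE 0.13, edgeR adjusted p = 0.766), -0.32 without fear case 6, -0.09 without control 1 and -0.02 with the choroid plexus covariate. Itm2a, a membrane protein abundant in brain endothelium, averaged 5.16 ± 0.976 CPM in fear case and 6.06 ± 1.09 CPM in control, with 3 fear case libraries below every control (log2 fold change -0.23, SE 0.17, edgeR adjusted p = 0.802). Vwf, the clotting factor carrier of larger vessels, averaged 1.73 ± 0.693 CPM in fear case and 1.58 ± 0.899 CPM in control (log2 fold change 0.14, SE 0.38, edgeR adjusted p = 0.967).

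**Figure D4:**
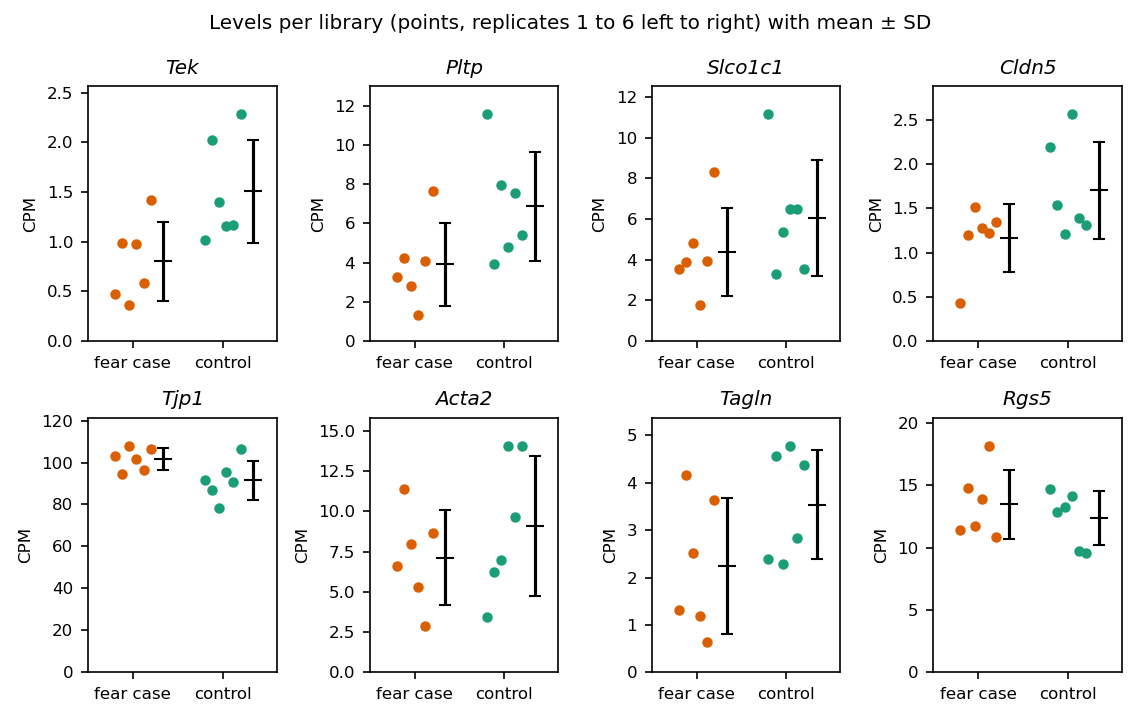
CPM (vertical axis) of 8 members in each fear case and control library (points, replicates 1 to 6 from left to right), with the mean and SD of each group (n = 6) at its right. Tek and Pltp have 5 and 3 fear case libraries below every control, and the groups overlap in all 8 genes.

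Ly6c1 and Ly6a, surface antigens of mouse endothelium, were near the floor of detection. Ly6c1 had 2 to 18 counts per library, 0.260 ± 0.197 CPM in fear case and 0.371 ± 0.266 CPM in control, and Ly6a 4 to 27 counts, 0.560 ± 0.330 CPM in fear case and 0.433 ± 0.231 CPM in control (SD, n = 6 each). Their genes lie close together on chromosome 15 (75044018 to 75048830 and 74994877 to 74998031, minus strand, GRCm38), and reads were 40 bases long. In the GENCODE transcripts 40.1% of the 40-base windows of Ly6c1 and 26.0% of those of Ly6a also occur in a gene at another position. The longest stretch of coding sequence that Ly6c1 shares letter for letter with its neighbour Ly6c2 runs over 188 bases, from base 66 to base 253 of the Ly6c1 coding sequence, and is shown because no 40-base read inside it can be placed at one of the 2 genes.
Ly6c1 and Ly6c2: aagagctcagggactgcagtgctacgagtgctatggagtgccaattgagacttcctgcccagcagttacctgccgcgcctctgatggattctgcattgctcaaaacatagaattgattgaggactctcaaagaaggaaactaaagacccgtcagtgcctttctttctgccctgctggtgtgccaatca
Ly6c2 itself had 3 counts over the 12 libraries. The files list alignments that were not unique on a line apart from the genes, so the levels of Ly6c1 and Ly6a are uncertain.

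Sharing of this kind touched few other members. Abcb1a shares 20.3% of its windows, mostly with Abcb1b, its neighbour on chromosome 5, which averaged 2.47 ± 1.01 CPM in fear case and 3.62 ± 0.956 CPM in control (SD, n = 6 each). Of the remaining 31 members, 21 share no window with a gene elsewhere and 10 share at most 2.70%. Besides Pltp, exons of Eng, Abcc9, Des and Tagln overlap a counted gene on the opposite strand, which are Fpgs, 5330439B14Rik, Gm15179 and Pcsk7.

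Of the 8 pericyte genes 6 had a negative log2 fold change and 2 a positive one, from -0.35 for Higd1b to 0.22 for Abcc9. Pdgfrb, the receptor that draws pericytes to vessels, stood at 4.78, 5.89 and 7.68 CPM in fear case and 5.69, 6.99 and 8.82 CPM in control, with 3 fear case libraries below every control. Its log2 fold change was -0.22 (SE 0.15, edgeR adjusted p = 0.793), -0.15 without control 1 and -0.024 with the choroid plexus covariate. Rgs5, a regulator of G protein signalling used as a pericyte marker, stood at 10.9, 12.8 and 18.2 CPM in fear case and 9.61, 13.05 and 14.7 CPM in control. Fear case 2 and fear case 5 were above every control, and the log2 fold change was 0.12 (SE 0.14, edgeR adjusted p = 0.891) with a 95% interval from -0.17 to 0.42.

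Abcc9, the sulfonylurea receptor subunit SUR2 of the potassium channel of pericytes, had the largest positive value among the members. It stood at 0.766, 2.28 and 2.69 CPM in fear case and 1.22, 1.79 and 2.10 CPM in control. For Abcc9, 4 fear case libraries were above every control and fear case 1 was below every control (log2 fold change 0.22, SE 0.30, edgeR adjusted p = 0.912).

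Vtn, the matrix protein vitronectin, averaged 6.76 ± 1.14 CPM in fear case and 7.76 ± 1.59 CPM in control (log2 fold change -0.20, SE 0.16, edgeR adjusted p = 0.825, and -0.036 with the choroid plexus covariate). Notch3, the Notch receptor of mural cells, averaged 1.16 ± 0.407 CPM in fear case and 1.45 ± 0.615 CPM in control (-0.31, SE 0.35, adjusted p = 0.878, and -0.13 without control 5). Anpep, the aminopeptidase CD13, averaged 1.02 ± 0.249 CPM in fear case and 1.06 ± 0.317 CPM in control (-0.06, SE 0.31, adjusted p = 0.988). Higd1b averaged 0.754 ± 0.305 CPM in fear case and 0.949 ± 0.495 CPM in control (-0.35, SE 0.39, adjusted p = 0.884), and its log2 fold change was -0.034 without control 1, its highest library. Des, the intermediate filament desmin, had 1 to 52 counts per library and averaged 0.688 ± 0.465 CPM in fear case and 0.703 ± 0.251 CPM in control, and its 95% interval from -1.21 to 1.21 is too wide to place it (-0.31 without fear case 6, 0.23 without fear case 4). Each of these 5 averages has n = 6 per group.

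The 3 contractile genes of smooth muscle all had negative values, with a median log2 fold change of -0.34. Acta2, smooth muscle alpha-actin, stood at 2.89, 7.30 and 11.4 CPM in fear case and 3.41, 8.33 and 14.1 CPM in control. Tagln, the actin-binding transgelin, stood at 0.631, 1.92 and 4.16 CPM in fear case and 2.28, 3.60 and 4.78 CPM in control, with fear case 1, 4 and 5 below every control. Myl9, a regulatory light chain of myosin, stood at 3.11, 5.87 and 6.92 CPM in fear case and 4.20, 7.05 and 9.05 CPM in control, and all 6 fear case libraries lay below the control median. The log2 fold changes were -0.34 (SE 0.29) for Acta2, -0.64 (SE 0.35) for Tagln and -0.26 (SE 0.20) for Myl9, with edgeR adjusted p of 0.833, 0.742 and 0.816. With the choroid plexus covariate the values were -0.61 for Acta2, -0.78 for Tagln and -0.50 for Myl9. With 1 library left out Acta2 ran from -0.52 without fear case 2 to -0.17 without control 4, Tagln from -0.90 without fear case 2 to -0.45 without fear case 5, and Myl9 from -0.37 without control 2 to -0.14 without fear case 1.

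Summed over the 3 genes the level was 15.0 ± 4.89 CPM in fear case and 19.4 ± 6.58 CPM in control, with control 1 at 10.96 and control 4 at 27.9 CPM. Summed over the 8 pericyte genes it was 31.96 ± 2.90 CPM in fear case and 33.1 ± 3.59 CPM in control (SD, n = 6 each). The libraries that led the smooth muscle sum, control 4 and control 6 among controls and fear case 2 among fear case libraries, were not those that led the choroid plexus sum. Control 1, first in choroid plexus markers, had the lowest smooth muscle sum of the controls. Fear case 6, first in choroid plexus markers among fear case libraries, had a smooth muscle sum of 17.8 CPM, against 22.5 CPM in fear case 2. A relation between these sums was not tested.

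The promoters of Acta2 and Myl9, the contractile genes found in the promoter table, are shown because all 3 contractile genes had values on the same side of 0, from 250 bases before to 50 after the gene start (RefSeq, GRCm38.p6), with capitals for the CArG box, the element bound by serum response factor that is known from smooth muscle genes. The pattern of the box reads the same on both strands.
Myl9, chr2:156775214-156775513, plus strand: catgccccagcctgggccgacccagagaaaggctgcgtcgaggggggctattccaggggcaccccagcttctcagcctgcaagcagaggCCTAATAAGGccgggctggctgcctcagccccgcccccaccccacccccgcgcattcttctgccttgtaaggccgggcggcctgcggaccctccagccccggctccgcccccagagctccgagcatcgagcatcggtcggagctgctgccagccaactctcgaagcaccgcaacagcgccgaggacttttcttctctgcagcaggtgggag
Acta2, chr19:34255324-34255623, minus strand: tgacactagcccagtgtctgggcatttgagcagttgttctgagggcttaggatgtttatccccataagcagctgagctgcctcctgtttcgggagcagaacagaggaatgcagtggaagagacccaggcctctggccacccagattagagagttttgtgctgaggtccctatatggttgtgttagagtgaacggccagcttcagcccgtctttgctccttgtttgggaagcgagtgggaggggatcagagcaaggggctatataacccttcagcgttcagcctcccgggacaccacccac
Myl9 held 1 box, in the window shown, and Acta2 held no exact match there. The Acta2 window does hold ccctatatgg and ccttgtttgg, each 1 base away from the pattern searched. Only exact matches were counted, so a count of 0 does not mean that a promoter lacks a working element. Promoters were found for 25 of the 34 members, 8 mural and 17 endothelial. An exact match was held by 1 mural and 0 endothelial genes, against 1.63% of the 32851 promoters in the table.

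Endothelial and mural genes tended to stand high or low in the same libraries. The median deviation of the genes from their own means on the log2(CPM + 0.5) scale had the same sign for both classes in 11 of 12 libraries, which share their scaling and depth. It was lowest in fear case 5, at -0.21 for endothelial and -0.26 for mural genes, followed by fear case 1 at -0.13 and -0.22. It was highest for endothelial genes in fear case 6, at 0.34, where mural genes stood at 0.22. In fear case 2 the endothelial value was -0.045 and the mural value 0.21. Controls lay between -0.10 and 0.13 for endothelial genes and between -0.064 and 0.21 for mural genes. By single genes, 25 of the 34 members were highest in a control library and 23 were lowest in a fear case library. Control 1 alone was highest for 7 endothelial and 2 mural genes, and fear case 1 alone was lowest for 6 endothelial and 2 mural genes. The same shares over all genes were not computed, so these counts cannot be judged against them. Nor was the median deviation computed for all genes or for other lists. The joint movement is therefore not shown to be particular to vessel genes.

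**Figure D5:**
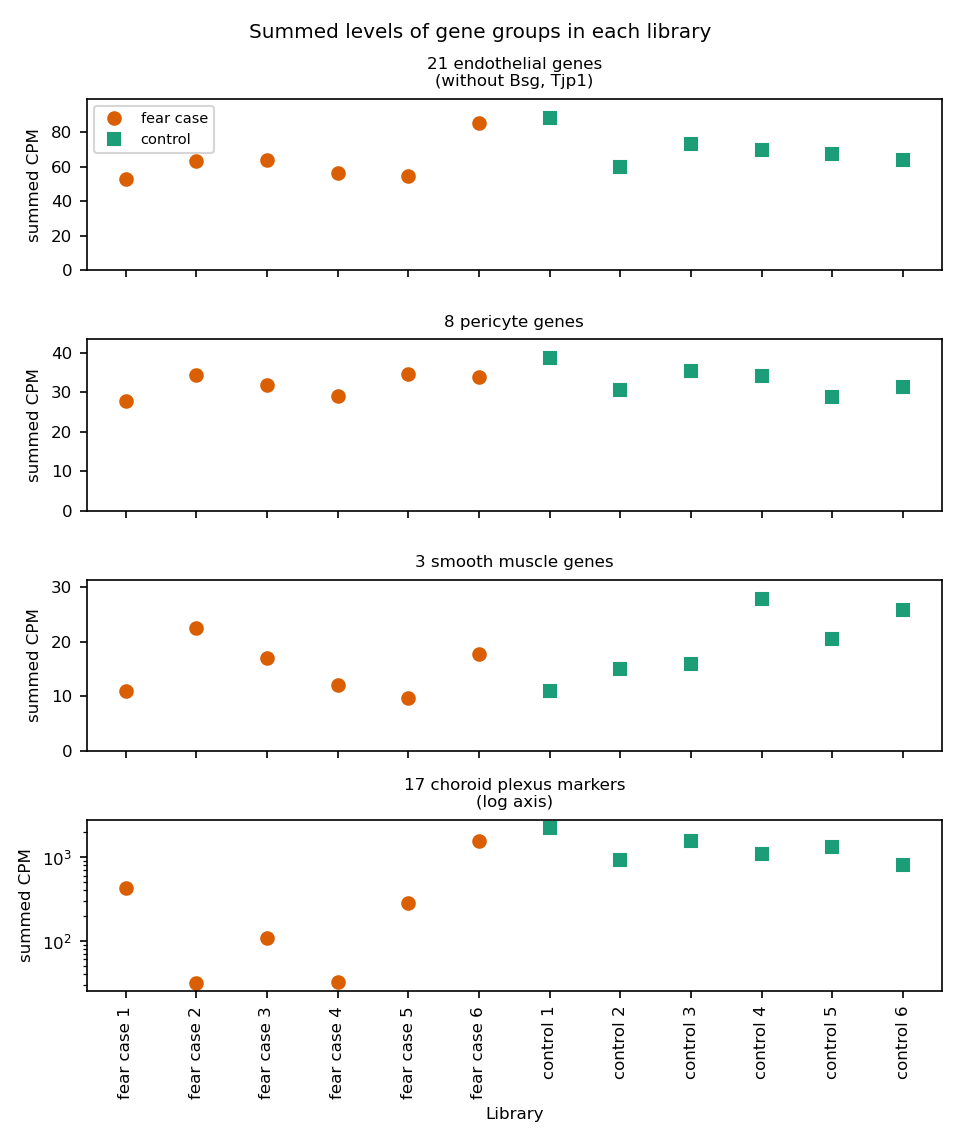
Summed CPM (vertical axes, the lowest panel on a log scale) of 21 endothelial genes without Bsg and Tjp1, 8 pericyte genes, 3 smooth muscle genes and 17 choroid plexus markers in each fear case and control library (horizontal axis). Fear case 6 and control 1 lead the endothelial panel at 85.0 and 88.2 CPM, and control 4 the smooth muscle panel at 27.9 CPM.

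Without Bsg and Tjp1 the other 21 endothelial genes summed to 62.6 ± 11.9 CPM in fear case and 70.3 ± 9.83 CPM in control (SD, n = 6 each). Fear case 1 to 5 lay between 52.9 and 63.7 CPM and fear case 6 at 85.0 CPM, against 59.9 to 88.2 CPM in control. Marker lists of other cells are given beside these sums. Markers of meninges and vessel fibroblasts summed over 16 genes to 117 to 162 CPM in fear case 1 to 5 and 249.95 CPM in fear case 6. In control they summed to 161 to 243 CPM. The sum averaged 157 CPM in fear case and 212 CPM in control, of which Igf2 alone held 48.5 and 89.6 CPM. Of the 15 tested genes of this list 13 had a negative log2 fold change. Dcn, at 0.26, and Pdgfra, at 0.12, had positive ones, so the sum does not stand for every marker in it. Markers of blood cells, the cells that vessels hold, summed over 16 genes to 2.43 to 8.14 CPM in fear case and 2.66 to 7.54 CPM in control. Only 2 of these 16 genes passed the filter on low counts, so the sum is a weak measure of blood content. The median log2 fold change was -1.52 for choroid plexus, -0.17 for meninges and fibroblast, -0.51 for ependyma, -0.06 for microglia and macrophage, -0.06 for astrocyte, -0.11 for oligodendrocyte and 0.06 for neuron markers. The part of these cells in the vessel levels was not tested.

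Other genes of the vessel pathways, held in separate lists, gave no called gene either, against 0.103% of all genes tested. The negative values counted below stand beside 51.4% over all genes. In the list of growth factor, angiopoietin, Notch and platelet-derived growth factor signalling, 22 of 24 genes were tested, 17 had a negative log2 fold change, and the median was -0.09. The lipid receptor gene S1pr1 averaged 25.9 ± 5.35 CPM in fear case and 20.2 ± 4.20 CPM in control (log2 fold change 0.37, SE 0.14, edgeR adjusted p = 0.554), and Smad6, an inhibitor of bone morphogenetic protein signals, 1.04 ± 0.612 CPM in fear case and 1.79 ± 0.407 CPM in control (-0.75, SE 0.36, adjusted p = 0.688). In the list of Wnt signalling and barrier induction, 18 genes were tested, 10 were negative and the median was -0.0049. Foxc1, a forkhead factor of mural cells and meninges, averaged 5.20 ± 0.996 CPM in fear case and 8.98 ± 2.60 CPM in control (-0.78, SE 0.19, adjusted p = 0.148), and Lef1, a nuclear effector of Wnt signals, 4.24 ± 1.18 CPM in fear case and 5.92 ± 1.14 CPM in control (-0.48, SE 0.19, adjusted p = 0.603).

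Of 24 further endothelial genes 21 were tested, 16 were negative and the median was -0.16. The caveolar coat genes Ptrf and Sdpr had the lowest p of that list, with log2 fold changes of -0.64 (SE 0.18, edgeR adjusted p = 0.258) and -0.66 (SE 0.20, adjusted p = 0.319). Ptrf averaged 10.8 ± 3.84 CPM in fear case and 16.98 ± 3.20 CPM in control, and Sdpr 4.76 ± 1.67 CPM in fear case and 7.54 ± 1.08 CPM in control. Of 12 further junction genes 9 were negative, with a median of -0.12. Cgnl1, the junction protein paracingulin, averaged 7.97 ± 6.53 CPM in fear case and 18.4 ± 3.67 CPM in control (-1.18, SE 0.31, adjusted p = 0.218), and Jam2, a junctional adhesion molecule, 11.5 ± 2.58 CPM in fear case and 9.22 ± 1.67 CPM in control (0.33, SE 0.16, adjusted p = 0.694).

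Of 16 further transport genes 14 were tested and 8 were negative, with a median of -0.07. The transferrin receptor gene Tfrc (0.24, SE 0.13, edgeR adjusted p = 0.735) and the lactate transporter gene Slc16a1 (0.21, SE 0.12, adjusted p = 0.742) had the lowest p there. Of 26 further mural genes 20 were tested and 12 were negative, with a median of -0.12. The tropomyosin gene Tpm2 averaged 7.56 ± 1.29 CPM in fear case and 10.6 ± 2.38 CPM in control (-0.49, SE 0.16, adjusted p = 0.400), and Mustn1, a small nuclear protein gene of muscle, 0.968 ± 0.521 CPM in fear case and 0.444 ± 0.256 CPM in control (1.12, SE 0.48, adjusted p = 0.618). Averages in these lists are given with the SD and n = 6 per group.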

How the data were processed

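Each library's file gives whole-number counts per gene symbol as deposited by the authors, without normalization. Per the submitters' processing notes, cutadapt, TopHat, Bowtie, HTSeq and the build mm10 were used. Not given in the sources used here are tool versions, annotation and strand setting. The counter's summary lines were left out, and 25.5% to 33.3% of counts fell on no gene.

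Counts were fitted in R 4.3.3 with edgeR 4.0.16 (filterByExpr with minimum count 10 and total 15, TMM, quasi-likelihood test without covariates, Benjamini-Hochberg adjustment over 14564 genes). The SE is the size of the log2 fold change over the square root of F. Median depth was 21.6 M counts, so genes near 1 CPM rest on few counts. DESeq2 1.42.0 and limma 3.58.1 were alternatives. The fit was tested on simulated counts. The 34 members, the lists and the rule for named genes (all members, and the 2 genes of lowest p in each other list) were chosen with earlier results of these data known. Departing from that rule, marker lists of other cells are given as sums and medians, and of their genes only Ttr, Igf2, Dcn and Pdgfra are named. Symbols were matched to GENCODE vM21 (GRCm38), and promoters are from RefSeq (GRCm38.p6).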

Additional observations from a re-analysis of the deposited data

Results flagged for a closer look

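Each of the 34 genes was screened in both groups of 6 libraries (68 groups) for a library whose gap to its nearest neighbour exceeded Dixon's 95% critical share of the whole range, which chance gives in about 1 of 20 groups, and 5 were found. Abcg2 stood at 11.1 CPM in fear case 4, against 6.31 to 6.77 CPM in the other fear case libraries. Cldn5 stood at 0.426 CPM in fear case 1, against 1.19 to 1.52 CPM. Myl9 stood at 3.11 CPM in fear case 1, against 5.51 to 6.92 CPM. Ly6c1 stood at 0.628 CPM in fear case 3, against 0.0885 to 0.255 CPM. Higd1b stood at 1.89 CPM in control 1, against 0.534 to 0.955 CPM in the other controls.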

How the results depend on the processing

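Over 21 alternatives 0 members were called in any, and 596 of 668 member values kept their direction and side of the threshold. The other 72 changed sign, in 16 members. Genes called over the whole table, 15 (7 higher, 8 lower), were 33 (26 lower) with library totals only, 63 (13 higher, 50 lower) with DESeq2, 5 lower with limma-voom, 37 (11 higher, 26 lower) with no filter, 4 lower with at least 1 CPM in 6 libraries, and 5 (0 lower) with the choroid plexus covariate. With 1 library left out they were 9 to 128 (6 to 12 higher, 3 to 116 lower), the highest without fear case 6, and the endothelial median was -0.28 to -0.0025.

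Same-numbered libraries did not deviate together (correlations -0.17 to 0.047), and the labels do not say that the numbers pair them. Such correlations cannot exclude a pairing. A fit with the replicate number as a block called 18 genes and 0 members, with medians of -0.15 for endothelial and -0.23 for mural genes, and Eng at 0.10, Esam at 0.016 and Slc2a1 at -0.027. Slc2a1 was -0.0012 with RLE scaling, -0.045 with library totals and -0.0033 with DESeq2. Ocln was -0.021 with library totals. Eng was 0.23 and Pecam1 0.020 with limma-voom. With the choroid plexus covariate Flt1 was -0.041, Eng 0.40, Cdh5 0.29, Pecam1 0.25, Mfsd2a 0.23, Abcg2 -0.13, Slco1a4 0.057, Slco1c1 0.19 and Des 0.29. The cause of these changes was not tested.

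With 1 library left out the log2 fold change ran from -0.046 to 0.24 for Flt1, -0.54 to 0.12 for Tie1, -0.22 to 0.15 for Eng, -0.090 to 0.15 for Ocln, -0.31 to 0.095 for Cdh5, -0.36 to 0.13 for Pecam1, -0.13 to 0.14 for Esam, -0.12 to 0.12 for Slc2a1, -0.27 to 0.025 for Abcb1a, -0.11 to 0.21 for Abcg2, -0.32 to 0.0057 for Slco1a4, -0.070 to 0.43 for Vwf, -0.16 to 0.094 for Anpep and -0.31 to 0.23 for Des.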
